A study of Rattus norvegicus with 24 samples.

Results

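Cell cycle and proliferation genes were followed in the rat urethra 3d and 7d after simulated vaginal delivery (SVD), an injury that combines crushing of the pudendal nerve with distension of the vagina. The set named 40 genes by symbol: the G1 cyclin Ccnd1, 15 genes of DNA replication and S phase, and 24 genes of mitosis. Of these, 38 had a row in the table of 32883 genes, and Ccnb2 and E2f1 were not analysed here. Averaged over the 24 samples, 37 genes reached 2 normalized gene counts or more, namely Ccnd1, 13 S phase genes and 23 mitosis genes, out of 16287 genes that passed in all. Rrm2, the small subunit of ribonucleotide reductase, did not pass, with 5 reads in all samples together.

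All rats were 12-week-old virgin female Sprague-Dawley rats that underwent SVD. About an hour later they received an intra-aortic injection of saline (control), of allogeneic mesoangioblasts (MABsallo), or of allogeneic mesoangioblasts overexpressing VEGF (MABsallo-VEGF). Mesoangioblasts are vessel-associated progenitor cells, here grown from hind limb muscle of donor rats and carrying a lentiviral vector with eGFP and firefly luciferase under a CMV promoter. The VEGF cells carried a further vector in which an SFFV promoter drives VEGF165 together with a truncated CD34. Each of the 6 groups of treatment and day held 4 samples, and at 7d MABsallo-VEGF replicates 6 and 7 are labelled as recovered. The RNA came from homogenized urethral tissue, so the reads of host and injected cells cannot be told apart, and neither can fewer dividing cells and less RNA per cell.

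The libraries held 2170695 to 10166052 reads on genes, fewest in MABsallo 3d (2170695 to 4491900) and most in MABsallo 7d replicate 11. One read was worth 1.67 to 9.23 normalized gene counts. Markers of urothelium, smooth muscle and skeletal muscle were present in the samples, but saline 3d replicate 8 and MABsallo-VEGF 3d replicate 2 stood apart. Over the 9 basal and squamous epithelium genes in the table, of 10 listed, they summed to 2140 and 3550 normalized gene counts against 28980 to 135800 in the other 22 samples. Krt14 and Sfn were at 0 in the first and Sfn in the second. Over 7 urothelium genes they summed to 1293 and 967 against 9531 to 57290. Several results that rest on these 2 samples are given with and without them. The row of rat Vegfa held 619 to 1352 normalized gene counts in MABsallo-VEGF 3d, 1334 to 2262 in MABsallo 3d and 958 to 1172 in saline 3d. The species of the VEGF165 cDNA is not given in the sources used here, so this row need not hold reads of the vector. The row of Cd34 held 57.9 to 783 in MABsallo-VEGF 3d, 174 to 1373 in MABsallo 3d, 15.7 to 771 in saline 3d and 3.15 to 18.6 in all samples of 7d. In saline 3d, replicate 6 held 771 and the others 15.7 to 32.2. In MABsallo-VEGF 3d, replicate 4 held 57.9 and the others 249 to 783. Rb1, Ccnd2 and Atad2, described below, were also highest of the group in the former and lowest in the latter. Fits with 22 samples leave out both.

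Dividing cells copy their DNA in S phase and separate it in mitosis, and each step has its own set of transcripts. Genes of replication, such as the MCM helicase, are switched on by E2F factors once the retinoblastoma proteins are phosphorylated by cyclin D kinases. Mitotic genes peak later, in G2 and M, and many of them are controlled through CCAAT boxes, bound by NF-Y, and through the cell cycle genes homology region (CHR), bound by the MuvB complex. In muscle and epithelium, cells that divide after injury are one source of new tissue, and infiltrating immune cells and fibroblasts divide as well.

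The promoters of the genes on which the results below turn were searched for letters of both kinds. A RefSeq promoter sequence (GRCr8) was matched by symbol for 29 of the 40 genes, and the 250 bases before each start were searched on both strands. No sequence is shown for Ccna2, Ccne2, Ccnd1, Aurkb, Tpx2, Mcm4, Rrm2, Cdc6, Foxm1, E2f1 and Racgap1. The CHR was searched as TTTGAA and also as TTCGAA. The CCAAT box was searched by its name. The E2F letters were TTTCCCGC, then TTTGGCGC, then TTTCGCGC, then TTTGCCGC, and the Sp1 GC box was GGGCGG. CHR and CCAAT letters can overlap each other, and so can E2F letters on opposite strands. CHR letters were found in 10 of 19 mitosis promoters (52.6%), in 3 of 10 S phase promoters (30%) and in 17.3% of all 27457 promoters. CCAAT was found in 16 mitosis promoters (84.2%), in 6 S phase promoters (60%) and in 34.3% of all. The E2F letters were held by 1 mitosis promoter (5.26%), by 5 S phase promoters (50%) and by 1.81% of all. GGGCGG stood in 68.4%, 80% and 32.4%. These matches are descriptions of the letters and not of bound factors.

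Below are the 2 mitosis genes and 3 of the S phase genes that passed the test between days. Capitals mark the CHR, the CCAAT box and E2F letters on either strand, and a CCAAT box of the other strand reads as ATTGG. All 5 lie on the minus strand of GRCr8 and are written 5′ to 3′ along the gene: Mki67 at chr1:199952594-199952843, Hmmr at chr10:25665216-25665465, Mcm6 at chr13:42404353-42404602, Pcna at chr3:139955821-139956070 and Tyms at chr9:120776084-120776333.
Mki67: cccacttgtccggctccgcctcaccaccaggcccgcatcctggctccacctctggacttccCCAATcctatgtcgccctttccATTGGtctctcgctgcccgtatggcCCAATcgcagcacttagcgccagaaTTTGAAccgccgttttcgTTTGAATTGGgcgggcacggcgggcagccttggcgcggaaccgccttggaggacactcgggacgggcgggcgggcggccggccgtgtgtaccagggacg
Hmmr: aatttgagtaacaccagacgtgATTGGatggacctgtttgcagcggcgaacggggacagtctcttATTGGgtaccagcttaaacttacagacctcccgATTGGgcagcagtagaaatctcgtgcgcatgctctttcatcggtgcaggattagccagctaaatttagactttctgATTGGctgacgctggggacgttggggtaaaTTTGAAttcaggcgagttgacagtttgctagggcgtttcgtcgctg
Mcm6: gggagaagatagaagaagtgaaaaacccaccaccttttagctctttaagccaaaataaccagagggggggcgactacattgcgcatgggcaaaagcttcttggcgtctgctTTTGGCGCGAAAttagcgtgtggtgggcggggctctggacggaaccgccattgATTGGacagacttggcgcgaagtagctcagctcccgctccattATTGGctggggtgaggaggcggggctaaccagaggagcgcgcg
Pcna: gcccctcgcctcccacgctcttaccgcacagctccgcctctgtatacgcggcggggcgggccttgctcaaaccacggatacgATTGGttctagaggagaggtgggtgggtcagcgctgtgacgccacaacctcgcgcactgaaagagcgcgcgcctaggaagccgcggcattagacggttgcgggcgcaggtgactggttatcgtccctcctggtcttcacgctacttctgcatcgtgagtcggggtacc
Tyms: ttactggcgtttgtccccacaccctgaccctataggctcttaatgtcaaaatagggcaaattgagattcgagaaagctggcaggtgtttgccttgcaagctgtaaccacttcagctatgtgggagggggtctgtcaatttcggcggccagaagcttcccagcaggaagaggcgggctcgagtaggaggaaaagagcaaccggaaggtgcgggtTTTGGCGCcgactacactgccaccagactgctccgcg
The window of Mki67 held 2 CHR and 4 CCAAT matches, and that of Hmmr held 1 and 4. In Mki67 the last CHR and CCAAT letters overlap. Mcm6 held 2 E2F matches, which overlap on opposite strands, and Tyms held 1. Pcna held none of the E2F letters and 1 CCAAT.

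Within groups, the cell cycle genes moved up and down together from sample to sample. In saline 3d, replicates 6 and 8 took the 2 highest places of the group for 37 and 35 of the 37 genes. In MABsallo-VEGF 3d, replicate 2 was the highest of its group for 35 genes, and in MABsallo 7d replicate 11 was the highest for 36. Over all 24 samples, 17 of the 37 genes were highest in MABsallo 7d replicate 11 and 14 in MABsallo-VEGF 3d replicate 2. The 38 genes together took 0.186% of the reads of MABsallo 7d replicate 11, 0.164% and 0.161% of saline 3d replicates 8 and 6, 0.135% of MABsallo-VEGF 3d replicate 2, and 0.0398% to 0.0804% of the other 20 samples. Of these 4 samples, saline 3d replicate 8 and MABsallo-VEGF 3d replicate 2 are those with low epithelial markers, whereas saline 3d replicate 6 and MABsallo 7d replicate 11 had 48400 and 83380 normalized gene counts of the basal and squamous list. MABsallo 7d replicate 11 is also the deepest library. The part of tissue content and of depth in these levels was not tested.

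**Figure D1:**
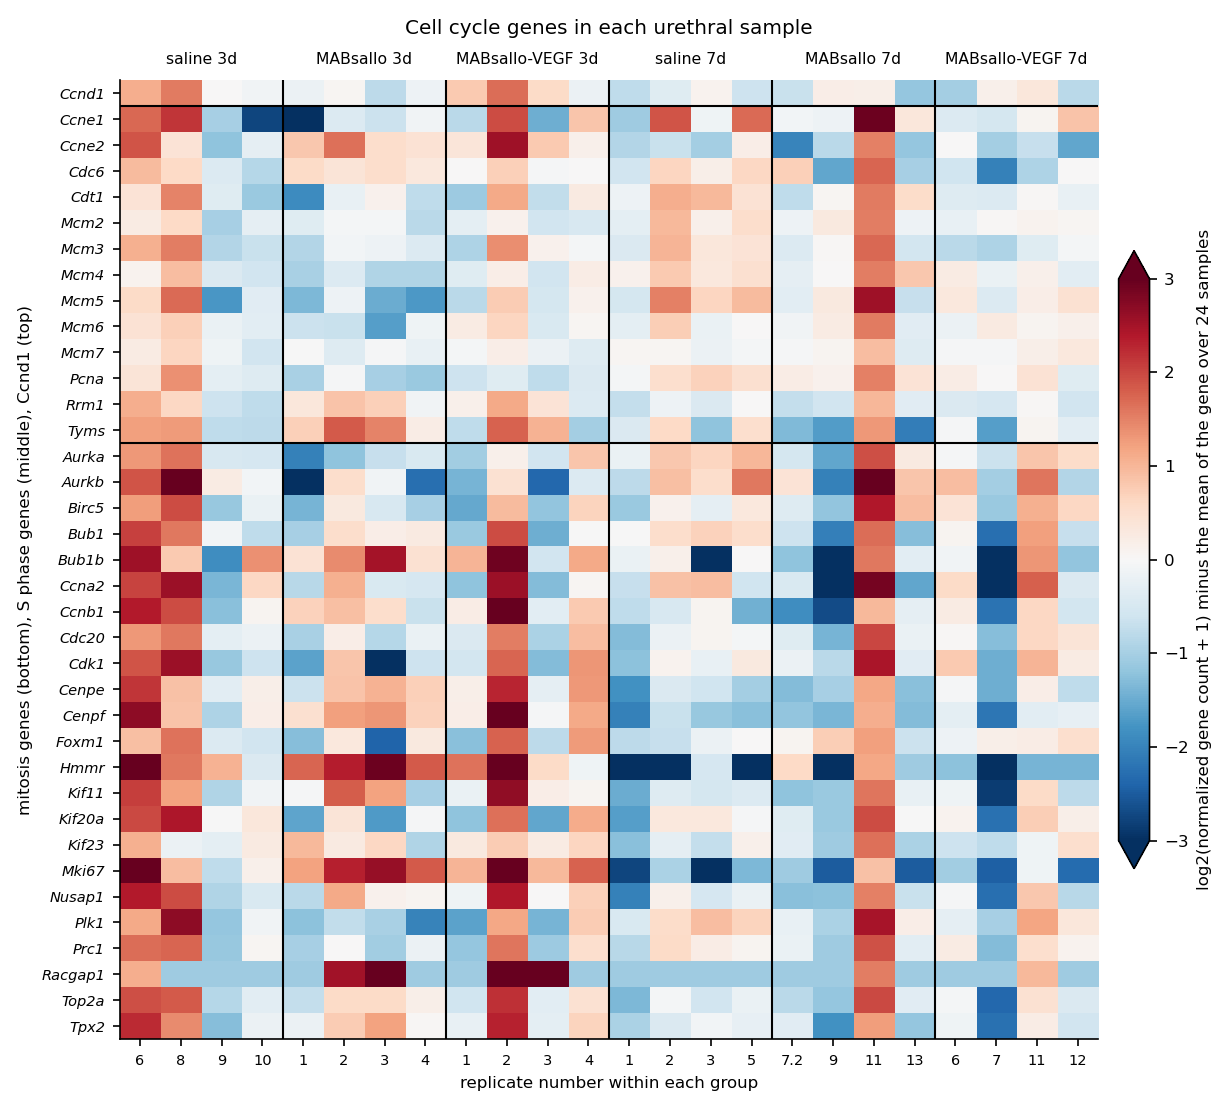
Levels of the 37 tested cell cycle genes (rows) in the 24 samples (columns, by group and replicate), as log2(normalized gene count + 1) minus the mean of the gene over all samples, with colors limited to 3 in either direction. Saline 3d replicates 6 and 8, MABsallo-VEGF 3d replicate 2 and MABsallo 7d replicate 11 are red over most rows. Hmmr and Mki67 are red in most samples of 3d and blue in most of 7d, but red in MABsallo 7d replicate 11.

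The first question was whether proliferation genes differed between 3d and 7d. Mki67, which encodes the Ki-67 protein that coats mitotic chromosomes (ENSRNOG00000028137), was higher at 3d than at 7d in every treatment. After saline it had 912.5, 188.1, 57.2 and 109.1 normalized gene counts at 3d (replicates 6, 8, 9 and 10) and 13.5, 49.8, 10 and 37.7 at 7d (replicates 1, 2, 3 and 5). MABsallo samples held 227.2, 497.8, 600.1 and 352.6 at 3d (replicates 1 to 4) and 46.5, 16.6, 181.8 and 16.6 at 7d (replicates 7.2, 9, 11 and 13). After MABsallo-VEGF the values were 200.1, 1575, 191.7 and 338.4 at 3d (replicates 1 to 4) and 47.2, 17.1, 90 and 18.9 at 7d (replicates 6, 7, 11 and 12). The days did not overlap in any treatment, and the highest value at 7d was that of MABsallo replicate 11. In limma's test the difference on the log2(normalized gene count + 1) scale was 3.28 ± 0.85 (SE, n = 4 and 4) after MABsallo, a 9.75-fold rise at 3d over 7d with an adjusted p of 0.00525. After MABsallo-VEGF it was 3.42 ± 0.85 (10.7-fold, limma adjusted p = 0.0063), and after saline 2.94 ± 0.85 (limma adjusted p = 0.0509), which did not pass the test. The saline difference was called by DESeq2 (adjusted p = 0.00127) and edgeR (adjusted p = 0.0253), and by limma without saline 3d replicate 8 and MABsallo-VEGF 3d replicate 2 (log2 difference of 2.93, adjusted p = 0.0305). Without saline 3d replicate 6, its highest sample, it was 2.17 (limma adjusted p = 0.245).

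Hmmr, the hyaluronan-mediated motility receptor that also acts at the mitotic spindle (ENSRNOG00000059894), was the single gene called between days in all 3 treatments. After saline its 4 samples at 3d held 103.3, 31.4, 21.4 and 7 normalized gene counts, and those at 7d held 0, 0, 6.7 and 0. MABsallo samples had 35.5, 54.7, 83.1 and 38 at 3d and 15.5, 0, 23.4 and 4.2 at 7d. In MABsallo-VEGF the levels were 32.4, 266.7, 15.1 and 8.9 at 3d against 3.6, 0, 3.1 and 3.2 at 7d. Again no day overlapped with the other within a treatment, but the margins after saline and MABsallo-VEGF were narrow. After saline the lowest value at 3d was 7.04 (replicate 10) and the highest at 7d 6.7 (replicate 3). There 1 read was worth 3.52 and 3.35, so the margin was below 1 read. After MABsallo-VEGF no sample of 7d held more than 1 read, and the lowest at 3d was 8.9 at 4.45 per read. These are few reads: saline had 46 at 3d and 2 at 7d, a ratio of 27.2 per unit of depth with an exact 95% counting interval of 7.12 to 232. MABsallo-VEGF had 43 and 3 reads, a ratio of 24.9 (7.98 to 126). Both intervals cover counting error only. On the log2(normalized gene count + 1) scale, limma gave 4.07 ± 1.07 after saline (adjusted p = 0.0352), 2.91 ± 1.07 after MABsallo (adjusted p = 0.0422) and 3.54 ± 1.07 after MABsallo-VEGF (adjusted p = 0.0222). After saline the call was lost without replicate 6 or 9 at 3d or replicate 1, 2 or 5 at 7d, with limma adjusted p-values of up to 0.173. After MABsallo it was lost without any 1 of the 4 samples of 3d or without replicate 9 or 13 at 7d (limma adjusted p of up to 0.169), and DESeq2 and edgeR did not make it (adjusted p = 0.0976 and 0.14). After MABsallo-VEGF it was lost without replicate 2 at 3d (limma adjusted p = 0.112) or replicate 7 at 7d (limma adjusted p = 0.0773).

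Cenpf, a large kinetochore protein (ENSRNOG00000003388), came next among the mitosis genes. It had 2431, 689.9, 200.1 and 436.4 normalized gene counts at 3d after saline and 91.3, 236.5, 170.8 and 157.2 at 7d. In MABsallo it had 525.4, 886.3, 950.9 and 613 at 3d against 167.3, 145.7, 812.4 and 153.6 at 7d, where replicate 11 lay among the samples of 3d. In MABsallo-VEGF it had 432.6, 3092, 368.3 and 837.1 at 3d against 308.3, 82.7, 304.1 and 318.4 at 7d, without overlap. The log2 differences were 1.99 ± 0.69, 1.61 ± 0.69 and 1.84 ± 0.69, with limma adjusted p-values of 0.106, 0.0775 and 0.0601. After saline Cenpf was called by DESeq2 (adjusted p = 0.00531) and edgeR (adjusted p = 0.0415). After MABsallo-VEGF both called it too (adjusted p = 0.00871 and 0.0411), but neither did after MABsallo. Without the 2 samples of low epithelial markers, limma gave 1.94 after saline, 1.61 after MABsallo and 1.19 after MABsallo-VEGF (adjusted p = 0.0672, 0.0473 and 0.248). Cenpe, the kinetochore kinesin, gave log2 differences of 1.69, 1.1 and 1.39 (± 0.61 each), with limma adjusted p-values of 0.121, 0.181 and 0.112. DESeq2 called Cenpe after saline and MABsallo-VEGF (adjusted p = 0.0215 and 0.041), and edgeR did not. Without the 2 samples of low epithelial markers, limma gave Cenpe 1.64 after saline and 0.917 after MABsallo-VEGF (adjusted p = 0.0997 and 0.354).

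**Figure D2:**
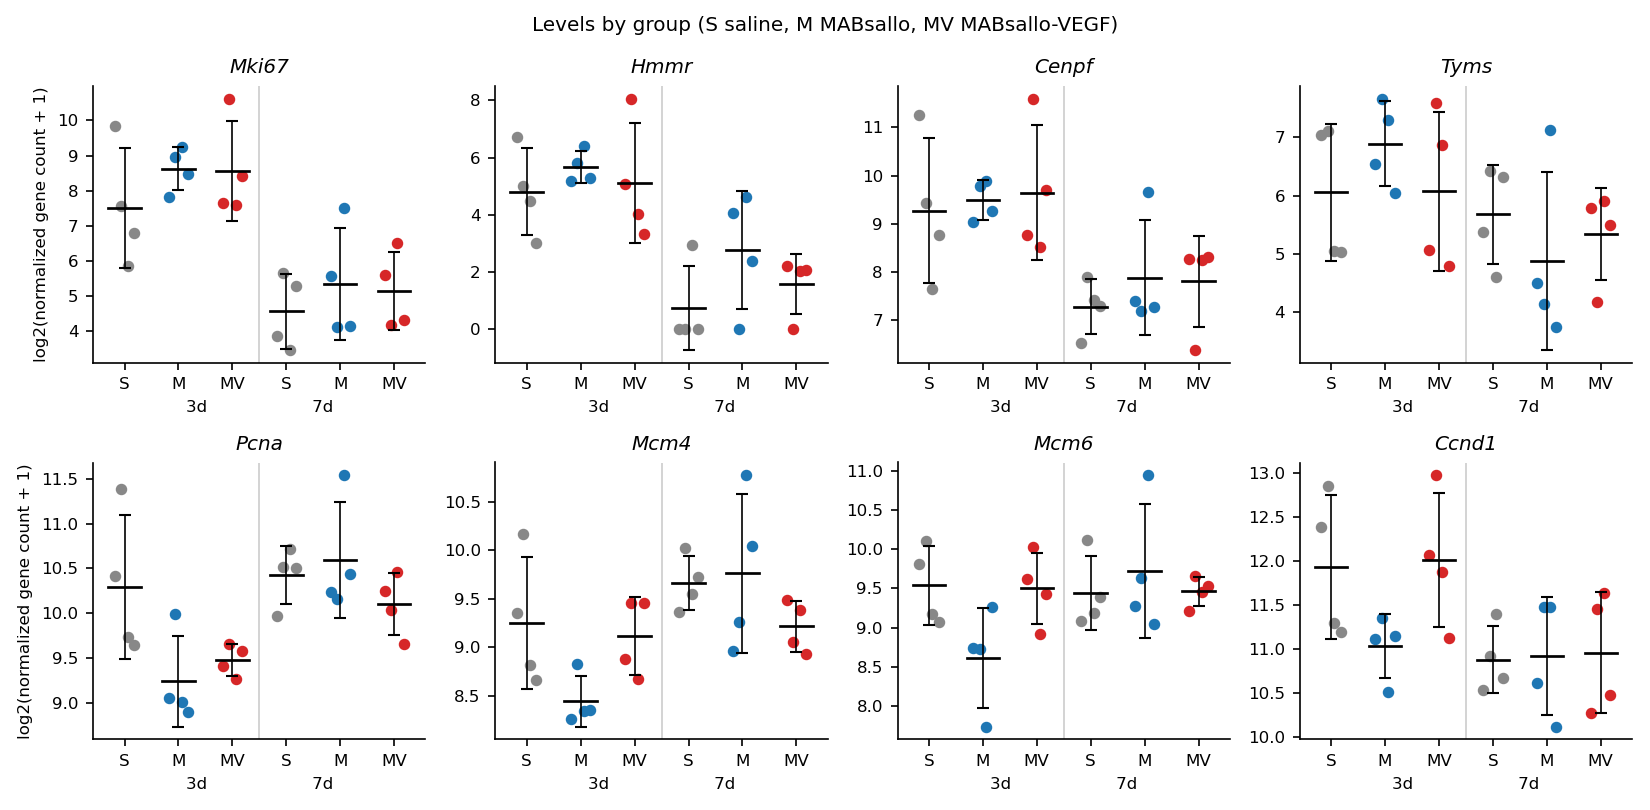
Levels of 8 cell cycle genes as log2(normalized gene count + 1) in each sample (points, gray saline, blue MABsallo, red MABsallo-VEGF) with the mean (line) and SD (error bar) of 4 samples in each group. Mki67 and Hmmr at 3d lie above 7d in each treatment, while Pcna and Mcm4 after MABsallo lie below.

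Over all 37 genes, 1 passed the test between days after saline (Hmmr), against 3.19% of all 16287 genes. After MABsallo 6 passed, of which 3 were higher at 3d (Mki67, Hmmr and Tyms) and 3 lower (Mcm4, Mcm6 and Pcna), against 23% of all genes, where 2765 were higher and 986 lower. After MABsallo-VEGF 2 passed (Mki67 and Hmmr), against 15.3% of all genes. Thus the share of cell cycle genes called was not above that of all genes in any treatment. The share of all genes after saline itself depended on a few samples, at 0.19% with 22 samples (without saline 3d replicate 6 and MABsallo-VEGF 3d replicate 4, where 0 of the 37 were called) and 8.31% without the 2 samples of low epithelial markers (where 2 were). An unadjusted p under 0.05 was reached by 5, 11 and 6 genes, against 18.8%, 40.9% and 33.4% of all genes. Groups did not overlap and were higher at 3d for 3 genes after saline (Mki67, Hmmr and Cenpe), 2 after MABsallo (Mki67 and Hmmr) and 4 after MABsallo-VEGF (Mki67, Hmmr, Cenpf and Ccne2), against 5.65%, 17.7% and 13.8% of all genes. For Hmmr after saline the groups were apart by less than 1 read.

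Most mitosis genes had the higher mean log2 level at 3d. The log2 difference between 3d and 7d was above 0 for 22 of 23 after saline, with a median of 0.97, for 14 after MABsallo (median 0.42) and for 19 after MABsallo-VEGF (median 0.74). Among all genes tested it was above 0 for 53.1%, 52% and 51.8%, with medians of 0.049, 0.06 and 0.05. The 3 comparisons share no samples. In 14 of the 23 (60.9%, against 32.4% of all genes) it was above 0 in all 3: the chromosome and spindle genes Mki67, Top2a, Nusap1, Tpx2, Hmmr, Kif11 and Kif23, the kinetochore and checkpoint genes Cenpe, Cenpf, Bub1 and Bub1b, the cyclins Ccna2 and Ccnb1, and Racgap1, which had 20 reads in all. Aurka, the centrosomal Aurora kinase, was below 0 in all 3. The other 8, Cdk1, Plk1, Aurkb, Birc5, Cdc20, Foxm1, Kif20a and Prc1, were above 0 after saline and below 0 after MABsallo. Apart from Mki67 and Hmmr no mitosis gene passed limma's test in any of these comparisons, although DESeq2 on the recovered reads called 4 mitosis genes, in either direction, in each treatment and edgeR 3. After MABsallo, Mki67 was called higher at 3d, but Plk1 and Aurkb were called lower by DESeq2. Their log2 differences were -2.19 and -2.43 (DESeq2 adjusted p = 0.0159 and 0.047), and edgeR also called Plk1 lower (adjusted p = 0.0299). Of all genes DESeq2 called 8.52%, 23.1% and 17.5% and edgeR 6.07%, 24% and 16% after saline, MABsallo and MABsallo-VEGF. Without saline 3d replicate 8 and MABsallo-VEGF 3d replicate 2 the counts above 0 were 20 after saline (median 0.72) and 12 after MABsallo-VEGF (median 0.44), and those of the S phase genes described next were 3 and 5 of 13. Above 0 in all 3 treatments were then 12 mitosis genes, without Bub1 and Ccna2, against 33.3% of all genes. With 22 samples there were also 12, without Bub1 and Racgap1, against 28.4%.

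**Figure D3:**
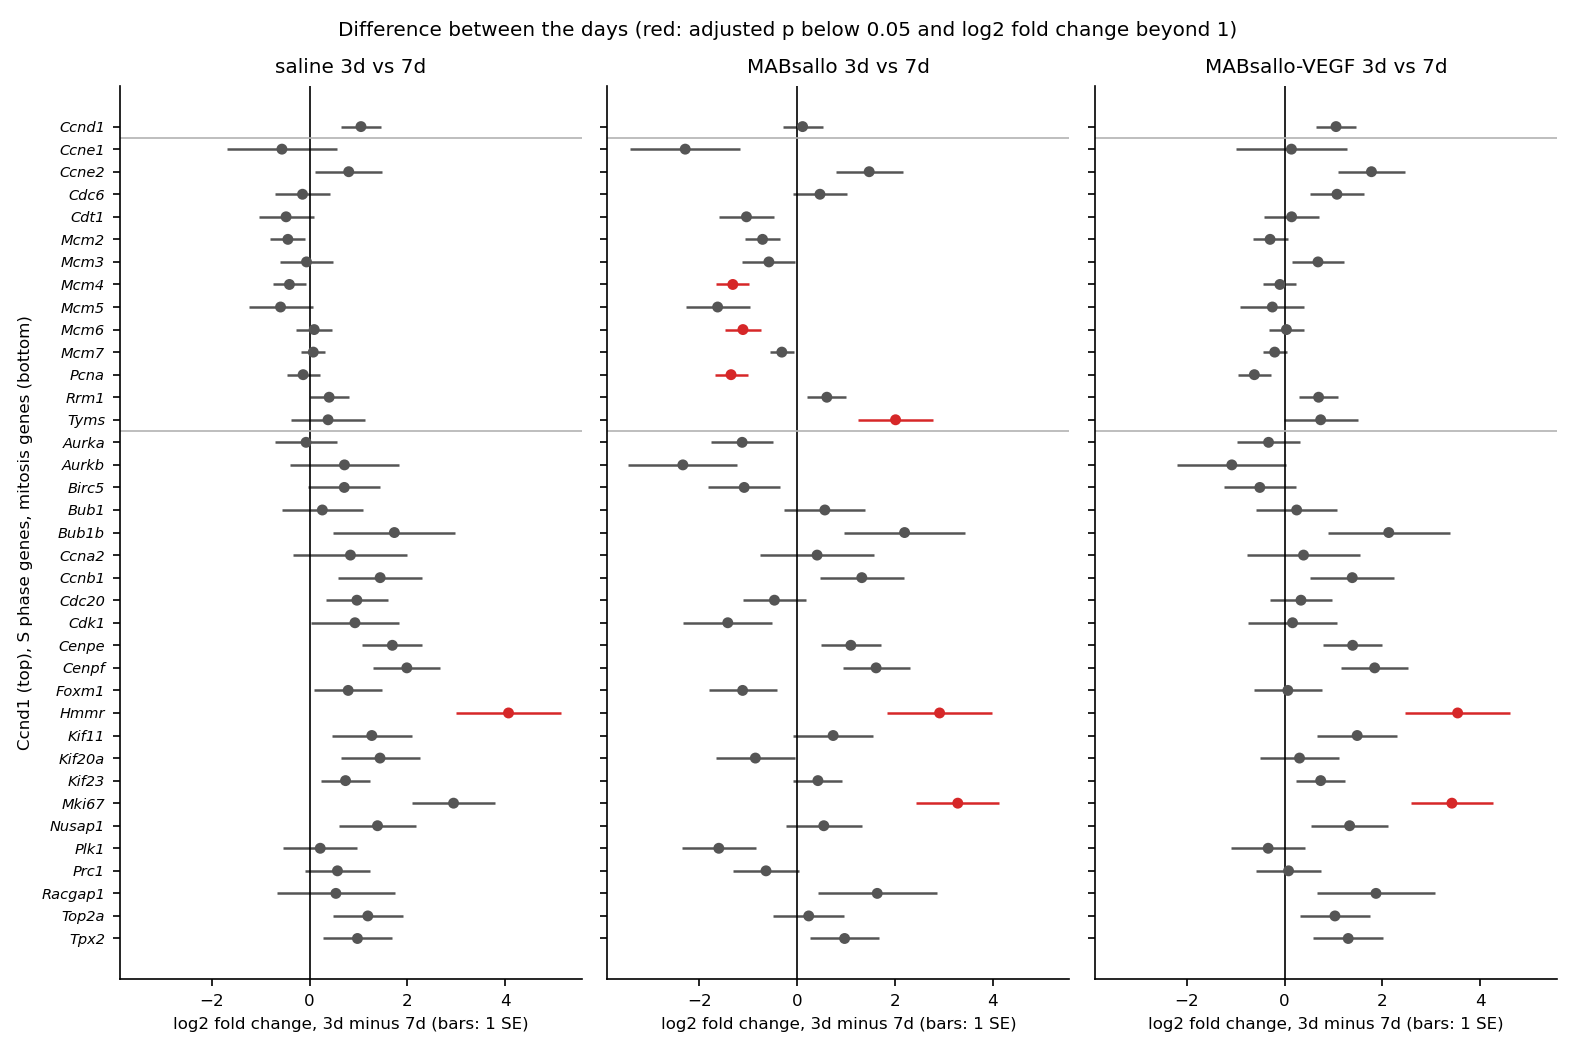
Log2 fold change of 37 cell cycle genes between 3d and 7d (3d minus 7d) after saline, MABsallo and MABsallo-VEGF, with bars of 1 SE from limma, and genes called in red. Hmmr is called in all 3 panels and Mki67 in the last 2, and Pcna, Mcm4 and Mcm6 are called lower at 3d after MABsallo.

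The S phase genes were divided. Of 13, the log2 difference between 3d and 7d was above 0 for 5 after saline (median -0.13), 4 after MABsallo (median -0.71) and 8 after MABsallo-VEGF (median 0.14). In all 3 treatments it was above 0 for Ccne2, Rrm1 and Tyms and below 0 for Mcm2, Mcm4, Mcm5 and Pcna. Ccne1, Cdc6, Cdt1, Mcm3, Mcm6 and Mcm7 had differences of either sign. No S phase gene passed limma's test after saline, where none reached an unadjusted p under 0.05 and DESeq2 and edgeR called 0, or after MABsallo-VEGF, where 1 reached it (Ccne2) and DESeq2 and edgeR called 1 and 0.

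Pcna, the sliding clamp of DNA polymerase (ENSRNOG00000021264), fell at 3d after MABsallo. It had 532.5, 1018, 517 and 477.4 normalized gene counts at 3d against 1208, 1139, 2978 and 1390 at 7d, and the days did not overlap. The log2 difference was -1.35 ± 0.34, with a limma adjusted p of 0.00427. Levels after MABsallo-VEGF were 681.3, 808.4, 615.5 and 765.8 at 3d and 1215, 1053, 1412 and 803.8 at 7d, a log2 difference of -0.62 ± 0.34 (limma adjusted p = 0.205). Saline samples had 1370, 2673, 850.6 and 798.8 at 3d and 1001, 1466, 1685 and 1453 at 7d, and the 2 ranges overlapped widely.

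Mcm4 and Mcm6, which encode subunits of the MCM2-7 helicase that opens DNA ahead of the replication fork, followed Pcna. Mcm4 (ENSRNOG00000001833) had 305.3, 454.1, 323.1 and 325.5 normalized gene counts at 3d after MABsallo and 498.7, 612.6, 1750 and 1054 at 7d, again without overlap. Its log2 difference was -1.32 ± 0.34 (limma adjusted p = 0.00502), and without MABsallo 7d replicate 11 it was -0.98, below the fold required of a call. Mcm6 (ENSRNOG00000003703) had 426, 421.3, 212.3 and 613 at 3d and 616.4, 791.4, 1973 and 527.1 at 7d, where the days overlapped. The log2 difference of Mcm6 was -1.11 ± 0.37 (limma adjusted p = 0.0246), and without MABsallo 7d replicate 11 it was -0.7 with a limma adjusted p of 0.128. Leaving out MABsallo 3d replicate 3 gave -0.82 (limma adjusted p = 0.111) and ended the call as well. Mcm5 gave -1.63 ± 0.65 (limma adjusted p = 0.0623), and Mcm2, Mcm3 and Mcm7 also had lower means at 3d without passing the test. DESeq2 and edgeR called Mcm5 (adjusted p = 0.00791 and 0.0163).

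Tyms, thymidylate synthase (ENSRNOG00000037225), went the other way after MABsallo. Its 92.3, 202.4, 156.9 and 65.1 normalized gene counts at 3d stood against 21.7, 16.6, 138.5 and 12.4 at 7d, where replicate 11 alone reached the levels of 3d. The log2 difference was 2.01 ± 0.76 (limma adjusted p = 0.0474), and neither DESeq2 (adjusted p = 0.136) nor edgeR (adjusted p = 0.223) called it. In limma the call was lost without any 1 of MABsallo 3d replicates 1, 2 and 3 and MABsallo 7d replicates 7.2, 9 and 13. Ccne2, which encodes a cyclin E that drives entry into S phase, had log2 differences of 1.47 ± 0.69 after MABsallo (limma adjusted p = 0.108) and 1.77 ± 0.69 after MABsallo-VEGF (limma adjusted p = 0.0701). Its values did not overlap in the latter, at 97.3, 450.1, 131.2 and 84.6 against 76.2, 37.1, 46.6 and 25.2. Without the 2 samples of low epithelial markers, the difference after MABsallo-VEGF was 1.24 (limma adjusted p = 0.253).

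Ccnd1, cyclin D1, was at 5337, 7389, 2502 and 2330 normalized gene counts in saline 3d and 1478, 1934, 2689 and 1623 in saline 7d. MABsallo-VEGF samples had 4293, 8034, 3743 and 2226 at 3d and 1237, 2795, 3178 and 1422 at 7d, whereas MABsallo samples stayed at 1459 to 2621 at 3d and 1112 to 2854 at 7d. The log2 difference between days was 1.05 ± 0.41 after saline (limma adjusted p = 0.154) and 1.05 ± 0.41 after MABsallo-VEGF (limma adjusted p = 0.0731). Neither passed limma's test, and the ranges of the days overlapped in each treatment. DESeq2 called both (adjusted p = 0.0419 and 0.043), and edgeR called neither. Without the 2 samples of low epithelial markers, they were 0.742 after saline and 0.729 after MABsallo-VEGF (limma adjusted p = 0.238 and 0.21).

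Next, the S phase genes were set against the mitosis genes sample by sample. The mean log2(normalized gene count + 1) of the 23 mitosis genes minus that of the 13 S phase genes was taken in each sample. Its absolute value compares different genes and is not read, but its shift between groups is a description of the balance of the 2 sets. In saline it was -0.25, -0.92, -1.4 and -0.74 at 3d and -2.21, -2.25, -1.79 and -2.16 at 7d, so that all 4 samples of 3d lay above all 4 of 7d. Group means were -0.83 ± 0.47 (SD, n = 4) and -2.1 ± 0.21. MABsallo went from -1.04 ± 0.27 at 3d to -1.8 ± 0.64 at 7d, and only replicate 11 at 7d (-1.27) lay above any sample of 3d, the lowest of which was at -1.34. MABsallo-VEGF went from -0.98 ± 0.68 to -1.59 ± 0.82, and the days overlapped, from -1.62 to -0.17 at 3d and from -2.68 to -0.73 at 7d. The 2 recovered urethras were at -1.29 and -2.68 and the others of their group at -0.73 and -1.64.

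The 2 sets contributed unequally. In saline the mean of the S phase genes was 8.12 ± 0.96 at 3d and 8.21 ± 0.49 at 7d, while that of the mitosis genes was 7.29 ± 1.27 and 6.11 ± 0.48. After MABsallo the S phase mean was 7.73 ± 0.38 at 3d and 8.17 ± 1 at 7d, and the mitosis mean 6.69 ± 0.64 and 6.37 ± 1.43. MABsallo-VEGF had S phase means of 8.08 ± 0.6 and 7.79 ± 0.23 and mitosis means of 7.1 ± 1.24 and 6.2 ± 1.04. These spreads are wide next to the differences, and both sets share the libraries in which they were measured. Saline 3d replicate 8 and MABsallo-VEGF 3d replicate 2 were at -0.92 and -0.17 in their groups, and without the former the 3 saline samples of 3d still lay above all of 7d. Without the latter, MABsallo-VEGF 3d ran from -1.62 to -0.67.

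**Figure D4:**
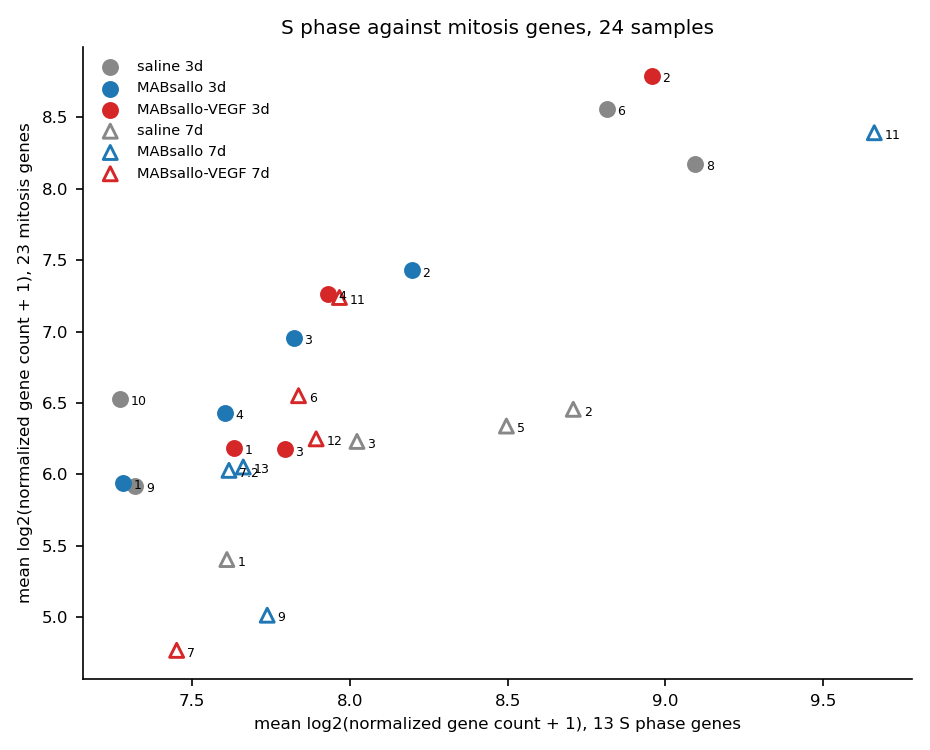
Mean log2(normalized gene count + 1) of 13 S phase genes (x axis) and 23 mitosis genes (y axis) in each of 24 samples, with filled circles for 3d and open triangles for 7d, numbered by replicate. At a like S phase level the saline samples of 7d lie below those of 3d, with mitosis means of 5.4 to 6.46 at 7d and 5.92 to 8.56 at 3d.

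The second question was whether these genes differed between treatments. The treatment comparisons of a day share their samples. At 3d, MABsallo against saline gave 1 call among the 37 genes, Pcna, against 12.3% of all genes. Pcna fell by 1.05 ± 0.34 on the log2 scale (limma adjusted p = 0.039), with 477.4 to 1018 normalized gene counts after MABsallo and 798.8 to 2673 after saline, so the groups overlapped. Without saline 3d replicate 8 the difference was -0.69 (limma adjusted p = 0.192), and leaving out saline 3d replicate 6 or MABsallo 3d replicate 1, 3 or 4 ended the call too. The log2 difference was below 0 for 27 of the 37 genes, and the median was -0.64 against 0.066 over all genes. An unadjusted p under 0.05 was reached by 8 genes, against 31.4% of all genes, all 8 lower after MABsallo: Ccnd1, Mcm4, Mcm6, Pcna, Aurka, Aurkb, Plk1 and Kif20a. Plk1, the Polo-like kinase of mitotic entry, had 48.8 to 120.4 normalized gene counts after MABsallo and 440.7, 1297, 89.3 and 186.5 after saline, a log2 difference of -1.88 ± 0.76 (limma adjusted p = 0.0934). DESeq2 and edgeR called Plk1 (adjusted p = 0.0128 and 0.0456), while limma without the 2 samples of low epithelial markers gave -1.19 (adjusted p = 0.318). The saline mean of Plk1 rested largely on the first 2 saline samples. Aurkb, the kinase of the chromosomal passenger complex, had 0, 43.8, 27.7 and 5.4 against 113.6, 250.9, 35.7 and 28.2, a log2 difference of -2.97 ± 1.12 (limma adjusted p = 0.0727). Without saline 3d replicate 8 and MABsallo-VEGF 3d replicate 2, 0 of the 37 were called, against 2.65% of all genes, and the medians were -0.22 for the S phase genes and -0.2 for the mitosis genes.

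MABsallo-VEGF against saline at 3d gave 0 calls among the 37 genes in limma, against 0.0307% of all genes. DESeq2 and edgeR gave 0 as well, against 2.44% and 0.00614% of all genes. A single gene, Pcna, reached an unadjusted p under 0.05. The share of all genes rose to 13.6% with 22 samples, where again 0 of the 37 were called. MABsallo-VEGF against MABsallo at 3d also gave 0 in limma, DESeq2 and edgeR, against 0.00614% of all genes, with Ccnd1 and Mcm6 at an unadjusted p under 0.05. At 7d, the comparisons of MABsallo with saline, MABsallo-VEGF with saline and MABsallo-VEGF with MABsallo each gave 0 calls in limma, DESeq2 and edgeR, against 0% of all genes in limma in each. Of all genes, DESeq2 called 0%, 0.178% and 0.0246% there and edgeR 0% in each. None of the 37 reached an unadjusted p under 0.05 in limma, while 1, 0 and 2 did in DESeq2 and 0, 0 and 2 in edgeR. The change of the difference from saline between 3d and 7d was tested as well. It gave 0 calls for MABsallo and for MABsallo-VEGF, against 0% of all genes, in limma, and DESeq2 and edgeR called 0 of the 37 in each. DESeq2 called 0.546% and 0.00614% of all genes there and edgeR 0% in both. With 22 samples 0 of the 37 were called as well, against 3.56% and 3.59% of all genes. For MABsallo, Pcna and Mcm6 reached an unadjusted p under 0.05 in limma, 11 genes did in DESeq2 and 14 in edgeR, and for MABsallo-VEGF none did in any of them. The shares of all genes at an unadjusted p under 0.05 are not given here for the comparisons of this paragraph. Counts at that threshold are therefore not read as a result about the cell cycle genes. With SEs from 0.34 for Pcna to 1.12 for Aurkb on the log2 scale, small differences were not detectable.

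Other genes of the cell cycle were taken from 4 lists. Among 47 further mitosis genes tested, 3 rose at 3d over 7d after saline, 4 after MABsallo and 6 after MABsallo-VEGF, and 0 fell. All genes were called at 3.19%, 23% and 15.3% in these comparisons, so the 4 of 47 after MABsallo are a smaller share than that of all genes. Smc2 and Smc4, the core of condensin, rose by 1.69 ± 0.33 and 1.38 ± 0.26 on the log2 scale after saline (limma adjusted p = 0.0114 and 0.0103), and so did the kinesin Kif20b. All 3 calls were lost without saline 3d replicate 6 (limma adjusted p = 0.0508, 0.0549 and 0.219), that of Smc2 also without saline 7d replicate 5, and that of Kif20b in 11 of 18 alternatives. Ckap2l, a spindle protein, rose 8.08-fold after MABsallo (limma adjusted p = 0.0104, and 0.0511 without MABsallo 7d replicate 13) and 11.3-fold after MABsallo-VEGF (limma adjusted p = 0.00606). Of 35 further S phase genes, 1 rose after saline, 4 rose and 3 fell after MABsallo, and 7 rose and 1 fell after MABsallo-VEGF. Atad2, a chromatin ATPase, was the one called in all 3, at 43.1 to 592 normalized gene counts in saline 3d, 582 to 766 in MABsallo 3d and 334 to 842 in MABsallo-VEGF 3d, against 12.4 to 118 in the 12 samples of 7d. The days overlapped after saline only, by 1 value. Its log2 differences between days were 2.84 ± 0.55, 3.1 ± 0.55 and 3.93 ± 0.55 (limma adjusted p = 0.0114, 0.000339 and 0.000149), and after saline the call was lost without saline 3d replicate 6 (limma adjusted p = 0.0681).

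Cdkn1b, the inhibitor p27 of cyclin-dependent kinases, had 1136, 372.4, 1004 and 809.4 normalized gene counts in saline 3d, 1286 to 3089 in MABsallo 3d, 1073 to 1995 in MABsallo-VEGF 3d and 115 to 362 in all samples of 7d. All 12 samples of 3d lay above all 12 of 7d. Its log2 difference between days was 2.16 ± 0.35 after saline, 3.11 ± 0.35 after MABsallo and 2.82 ± 0.35 after MABsallo-VEGF, with limma adjusted p-values of 0.00618, 2.06e-05 and 9.42e-05. At 3d it was also 2.6-fold higher after MABsallo than after saline (limma adjusted p = 0.015), a call lost without saline 3d replicate 8 (limma adjusted p = 0.0806), without MABsallo 3d replicate 1 (limma adjusted p = 0.06) and without both samples of low epithelial markers (limma adjusted p = 0.0781). Rb1, the retinoblastoma protein that holds E2F factors in check, had 23.5 to 124 normalized gene counts in saline 3d and 0 to 6.7 in saline 7d, 74 reads against 3, a ratio of 29.2 with an exact 95% counting interval of 9.61 to 145. It was at 120 to 369 in MABsallo 3d and 31.2 to 314 in MABsallo-VEGF 3d. In the list of 29 inhibitors and repressors, 2 rose in MABsallo against saline at 3d, where 12.3% of all genes were called. Between days 2 rose and 0 fell after saline, 6 rose and 1 fell after MABsallo and 3 rose and 2 fell after MABsallo-VEGF. Of all genes, 3.19%, 23% and 15.3% were called between days.

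Ccnd2, cyclin D2, was the gene of the list of 13 G1 cyclins, kinases and activators that rose in all 3 treatments. Saline 3d samples held 94.1 to 671 normalized gene counts, MABsallo 3d samples 700 to 1246 and MABsallo-VEGF 3d samples 303 to 1503, against 16.6 to 185 at 7d. The log2 differences were 2.35 ± 0.67, 3.83 ± 0.67 and 2.88 ± 0.67 (limma adjusted p = 0.049, 0.000298 and 0.00402), and after saline the call was lost in 12 of 18 alternatives. In that list 1 gene rose after saline, 5 rose and 1 fell after MABsallo and 3 rose after MABsallo-VEGF. Of all genes, 3.19%, 23% and 15.3% were called in these comparisons. Prim1, the primase subunit, was the one further S phase gene lower in MABsallo than in saline at 3d, at 388 to 684 against 882 to 4500 normalized gene counts, a log2 difference of -1.98 ± 0.41 (limma adjusted p = 0.00684). Atad2, of the same list, was the one called higher there (log2 difference of 1.99 ± 0.55, limma adjusted p = 0.0208). The Atad2 call was lost without saline 3d replicate 8 (limma adjusted p = 0.107) or 9 or MABsallo 3d replicate 1, whereas that of Prim1 held without the 2 samples of low epithelial markers (log2 difference of -1.58, limma adjusted p = 0.0355).

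Other measures moved with these groups. The summed level of small noncoding RNAs named in the table was 1356 to 8955 normalized gene counts in MABsallo 3d, 566 to 3334 in MABsallo-VEGF 3d, 596 to 883 in saline 3d and 245 to 728 in all samples of 7d. The 8 macrophage genes summed to 1243 to 13610 in MABsallo 3d and 11980 to 24310 in saline 3d, and 4 of them were called lower in MABsallo. Of 7 mast cell genes, which summed to 240.7 to 376.3 in MABsallo 3d and 595.7 to 2309 in saline 3d, 6 were called lower. The 9 myogenic progenitor genes summed to 6156 to 14460 in MABsallo 3d, 7976 to 14220 in MABsallo-VEGF 3d and 1705 to 7166 in saline 3d, with 3 called higher in MABsallo than in saline. Of all genes, 12.3% were called between MABsallo and saline at 3d. The 6 fibroblast genes summed to 342800 to 517600 in saline 3d, above the 56300 to 304500 of MABsallo 3d and the 198800 to 297700 of saline 7d. The 6 adipocyte genes had mean sums of 3142 in saline 3d and 23650 in saline 7d, and the 7 urothelium genes 9991 and 36550. Smooth muscle genes, 8 in all, summed to 24160 to 191300 in saline 3d and 166100 to 324600 in saline 7d. The part of these shifts in the levels of the cell cycle genes was not tested.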

How the data were processed

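Urethral RNA of 24 rats was sequenced as QuantSeq 3ʹ libraries. The authors trimmed adapters (fastq-mcf), aligned to Rnor6.0 (HISAT2), dropped reads with several matches, counted per gene (HTSeq) and applied DESeq2 size factors. The deposited signal is this normalized gene count. Every value was a whole multiple of 1 step per sample (100% within 0.01 of a read), which gave back the reads. Levels were not compared between genes.

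Tests used limma 3.58.1 (R 4.3.3, moderated with a mean trend) on log2(normalized gene count + 1), in 1 two-sided fit of 6 groups over 16287 genes averaging at least 2, Benjamini-Hochberg adjusted over all of these. A call required an adjusted p under 0.05 together with more than 1 on the log2 scale, and "rose" and "fell" refer to calls. For low genes a fold change on this scale can lie above or below that from the counts. Between days, Ckap2l after MABsallo had a log2 difference of 3.02 in limma and 2.3 in DESeq2. Rb1 after saline had 4.52 and 4.8. DESeq2 1.42.0 (Wald test) and edgeR 4.0.16 (quasi-likelihood) were run on recovered reads. Other alternatives were a pseudocount of 5, no filter, a mean of at least 10, quantile normalization, the same total per sample, 22 samples (without saline 3d replicate 6 and MABsallo-VEGF 3d replicate 4), only the groups compared, a replicate block, and leaving out each sample. Leaving out the 2 samples with low epithelial markers was chosen after seeing the data. The fits were tested on simulated data.

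The genes, lists and tests were chosen with earlier results of these data known. A repeated symbol was taken at its row with the highest mean. Any of the 40 genes could be named. Of other genes, those called in the cell cycle lists could be named, at most 3 a list and comparison by size of change, beside Vegfa and Cd34, and a gene so named was followed through the other comparisons. Mean log2 levels of sets carry no test. Groups came from the labels. Over the 36 pairs of replicates, chi-square divided by its degrees of freedom was 9 to 121.4, so none of them matched within sampling noise.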

Additional observations from a re-analysis of the deposited data

Results flagged for a closer look

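Of 84 sets of 4 values examined, 7 had 1 sample whose gap to the nearest other exceeded Dixon's 95% critical value as a share of the group's range. Chance gives about 1 in 20. In MABsallo 3d, replicate 2 was far above the other samples for Mcm4 (gap of 0.839 of the range) and Pcna (0.856). In MABsallo 7d, replicate 11, the deepest library, was far above the others for Cenpf (0.92) and for the mean log2 level of the S phase genes (0.941). In MABsallo-VEGF 7d, replicate 7, one of the recovered urethras, was far below the others for Cenpf (0.966). It was also flagged for Hmmr (0.922), which had no read there and no more than 1 read in any other sample of the group. In saline 7d, replicate 3 was the one sample with reads of Hmmr, with 2 reads. As the others were at 0, its gap was the whole range (1) whatever its level, so that flag carries no weight.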

How the results depend on the processing

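The counts of cell cycle genes called depended on the settings. MABsallo against saline at 3d (1 call) gave 6 with quantile normalization and with the same total per sample, 3 with DESeq2, 2 with edgeR, and 0 with 22 samples, with only the groups compared and without the low-epithelium samples. Of all genes, 11.8% were called with DESeq2 there, 8.24% with edgeR, 18.1% with 22 samples and 2.65% without the low-epithelium samples. Saline 3d against 7d (1 call) gave 0 with a pseudocount of 5, quantile normalization, 22 samples and only the groups compared, 2 with a mean of at least 10 and without the low-epithelium samples, 5 with DESeq2 and 3 with edgeR. Here 8.52% of all genes were called with DESeq2, 6.07% with edgeR, 0.19% with 22 samples and 8.31% without the low-epithelium samples. MABsallo 3d against 7d (6 calls) gave 11 with quantile normalization. MABsallo-VEGF 3d against 7d (2 calls) gave 1 with quantile normalization and without the low-epithelium samples, 6 with DESeq2 and 4 with 22 samples. The shares of all genes were 12.7% without the low-epithelium samples, 17.5% with DESeq2 and 20.3% with 22 samples. Shares of all genes under the remaining settings are not given here, so those counts are not read as a change of the cell cycle genes. Leaving out each sample gave 0 to 2, 0 to 2, 3 to 7 and 1 to 4 calls in these comparisons. The other 7 comparisons gave 0 calls in every alternative run. The mitosis minus S phase difference in saline 7d was -1.86 with a pseudocount of 5, -1.52 with no filter and -1.83 with a mean of at least 10, and with no filter, which adds Rrm2, it was -0.29 in saline 3d and -0.49 in MABsallo 3d. The cause of the other shifts was not tested. Of the named genes, Mki67 after MABsallo and MABsallo-VEGF and Pcna after MABsallo were called between days in all 18 alternatives, and none of the 47 differences recomputed under each alternative changed sign. The signs of other genes did change: without the low-epithelium samples 12 of 23 mitosis genes were above 0 between days after MABsallo-VEGF, against 19 with them.

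With the replicate block, MABsallo-VEGF against MABsallo at 3d gave 0 calls, as without it. Deviations of samples with the same number correlated at 0.222, 0.151, 0.0734 and 0.254, and numbers 1, 2 and 4, but not 3, correlated best with their own. As 1 pair was under 0.1 and the labels name no shared animal or batch, the numbers were not taken to pair the samples. Low genes were limited by depth, as Hmmr with 2 and 3 reads at 7d shows.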
